A study of Mus musculus with 4 samples.

Results

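Collagens are the proteins of the extracellular matrix that assemble, from 3 chains each, into a triple helix. The 44 collagen genes described here are all protein-coding genes of GENCODE M21 (mouse assembly mm10) whose symbol is Col, a number, the letter a and a number, among 21951 protein-coding genes in all. Each gene was taken with its body and 10 kb on either side, which gave 6.18 Mb of sequence, and was compared with the accessible regions (peaks) of 4 ATAC-seq libraries. In ATAC-seq the Tn5 transposase cuts open chromatin and adds sequencing adapters to the cut ends. The libraries came from posterior forelimb buds of mouse embryos at E10.5 (35 somites), all on a Swiss Webster background. There were 2 embryos labelled wild type (WT) and 2 Shh-/- embryos, which carry a null allele of Sonic hedgehog in all cells and so lack the SHH ligand. Each library was made from the paired posterior forelimb fractions of 1 embryo, with 5000 cells and 18 PCR cycles. It therefore mixes all cell types of that tissue, and fewer cells of a type cannot be told apart from less open chromatin per cell.

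Fibrillar collagens form the tension-bearing fibrils of connective tissue, and type II and type XI collagens, with the fibril-associated type IX, build the fibrils of cartilage. Type IV collagens form the sheet of basement membranes under epithelia and around vessels. In the limb bud at this stage the mesenchyme is largely undifferentiated, cartilage has yet to form, and Sonic hedgehog from the posterior margin patterns the digits. SOX9 and its partners are known to bind intronic enhancers of cartilage collagen genes.

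The libraries are called WT1 and WT2 (wild type, replicates 1 and 2) and Null1 and Null2 (Shh-/-, replicates 1 and 2) below. The peak lists were called in each library alone and held 39080 peaks in WT1, 11973 in WT2, 5589 in Null1 and 18459 in Null2. The number of peaks at any group of genes moves with these sizes, the read depth is not in the files, and a peak that was not called does not mean closed chromatin. Peaks are therefore given as called or not called, and by their score, which ranks peaks only within their own list. The rank percentile used below is 0 for the highest and 100 for the lowest score of a list. Ranks at the low end are coarse, since the scores at or below the median took only 6 to 9 different values in a list. Markers of limb mesenchyme had a promoter peak for 8, 4, 3 and 5 of 8 genes in the libraries in the order above, where 60.4%, 39.2%, 17.2% and 51.2% of all protein-coding genes had one. The counts were 1, 0, 0 and 1 of 8 for ectoderm, 3, 2, 0 and 2 of 8 for endothelium, 3, 1, 0 and 1 of 6 for blood, and 3, 1, 0 and 3 of 5 for muscle precursors. No peak was called near Krt14, Tek, Emcn, Gata1, Ptprc, Hbb-bt or Myf5 in any library, as at 27.1% of all genes. The part that other cell types have in the collagen peaks was not tested.

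The sequences behind the main observations are shown first. Each is the centre of the stretch that the peaks of a region had in common, without exons, read in the direction of the gene from GRCm38 (mm10). Capitals mark matches, on either strand, to a GC box (GGGCGG), the CCAAT box, the TATA box (TATAAA), the SOX site (ACAAAG), its form with more T (AACAAT), the GLI consensus (TGGGTGGTC) or a core of the CTCF site. None of these letter strings contains another, and a match is a description of the letters, not of binding. Regions of Col1a1, Col1a2 and Col2a1 and the regions called in 1 genotype were chosen by rule, and those of Col11a1, Col25a1, Col9a1 and intron 1 of Col26a1 after their values had been seen. The first 5 were called in all 4 libraries and lie at chr11:94928996-94929145 and chr11:94937159-94937308 (Col1a1, plus strand), chr6:4505376-4505492 (Col1a2, plus strand), chr3:114030299-114030448 (Col11a1, plus strand) and chr3:130180551-130180700 (Col25a1, plus strand).
Col1a1 upstream region: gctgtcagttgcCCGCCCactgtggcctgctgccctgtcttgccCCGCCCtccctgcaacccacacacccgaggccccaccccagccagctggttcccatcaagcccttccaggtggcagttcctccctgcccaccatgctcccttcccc
Col1a1 intron 1: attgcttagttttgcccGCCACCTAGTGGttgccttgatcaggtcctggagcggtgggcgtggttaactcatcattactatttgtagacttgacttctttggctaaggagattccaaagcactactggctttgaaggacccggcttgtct
Col1a2 promoter: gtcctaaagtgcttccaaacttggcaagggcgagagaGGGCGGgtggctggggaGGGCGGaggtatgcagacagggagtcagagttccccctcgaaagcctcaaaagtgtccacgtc
Col11a1 promoter: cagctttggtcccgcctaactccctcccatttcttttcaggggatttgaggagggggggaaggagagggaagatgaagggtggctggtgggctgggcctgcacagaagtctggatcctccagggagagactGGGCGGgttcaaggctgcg
Col25a1 promoter: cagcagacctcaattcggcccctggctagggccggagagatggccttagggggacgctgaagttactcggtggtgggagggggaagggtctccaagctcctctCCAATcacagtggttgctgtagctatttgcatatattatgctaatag

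The intronic regions of the cartilage genes Col2a1 (chr15:97990172-97990321, minus strand) and Col9a1 (chr1:24196174-24196323, plus strand) were called in WT1 and both Shh-/- libraries, and the region in intron 1 of Col26a1 (chr5:136861284-136861433, minus strand) in all 4 libraries.
Col2a1 intron 18: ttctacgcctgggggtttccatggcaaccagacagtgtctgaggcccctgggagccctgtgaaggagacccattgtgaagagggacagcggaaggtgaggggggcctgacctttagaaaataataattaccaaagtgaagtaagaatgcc
Col9a1 intron 7, past the second start: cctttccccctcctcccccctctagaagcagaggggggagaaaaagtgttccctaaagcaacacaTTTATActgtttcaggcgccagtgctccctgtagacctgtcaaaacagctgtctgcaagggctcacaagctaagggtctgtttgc
Col26a1 intron 1: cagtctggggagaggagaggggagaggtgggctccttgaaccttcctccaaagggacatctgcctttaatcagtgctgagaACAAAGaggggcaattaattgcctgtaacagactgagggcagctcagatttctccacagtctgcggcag

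The last 5 are from the regions that were called in both libraries of a genotype and in neither of the other. They lie at chr4:121039798-121039947 (Col9a2, plus strand), chr10:77165435-77165584 (Col18a1, minus strand), chr2:181015239-181015388 (Col20a1, plus strand), chr5:136882167-136882316 (Col26a1, minus strand) and, for the region called in Shh-/-, chr6:8077736-8077885 (Col28a1, minus strand).
Col9a2 start of intron 1, WT: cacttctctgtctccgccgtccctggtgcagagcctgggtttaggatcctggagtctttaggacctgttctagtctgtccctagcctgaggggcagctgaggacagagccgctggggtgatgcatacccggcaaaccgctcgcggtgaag
Col18a1 past the upstream start, WT: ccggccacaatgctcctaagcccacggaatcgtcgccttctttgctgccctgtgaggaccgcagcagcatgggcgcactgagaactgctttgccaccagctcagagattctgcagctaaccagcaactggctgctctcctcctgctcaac
Col20a1 intron 32, WT: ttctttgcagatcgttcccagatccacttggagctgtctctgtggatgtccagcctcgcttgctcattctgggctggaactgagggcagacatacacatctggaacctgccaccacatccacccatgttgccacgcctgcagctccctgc
Col26a1 start of intron 1, WT: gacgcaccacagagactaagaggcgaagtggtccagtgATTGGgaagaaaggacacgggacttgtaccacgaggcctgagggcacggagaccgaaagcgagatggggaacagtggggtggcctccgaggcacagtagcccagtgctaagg
Col28a1 intron 23, Shh-/-: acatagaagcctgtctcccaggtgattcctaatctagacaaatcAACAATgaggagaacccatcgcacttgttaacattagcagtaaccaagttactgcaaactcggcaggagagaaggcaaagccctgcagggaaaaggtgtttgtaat

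To see which collagen genes were accessible at this stage, peaks in the promoter window (2 kb before to 1 kb after any annotated transcription start site, TSS) were compared between libraries. The window held a peak at 32 of the 44 collagen genes in WT1, where 60.4% of all protein-coding genes had one. It held a peak at 13 in WT2, against 39.2% of all genes, at 5 in Null1, against 17.2%, and at 19 in Null2, against 51.2%. Collagen promoters were thus called at 72.7% in WT1, above the share of all genes, and at 29.5%, 11.4% and 43.2% in the other libraries, below it. The mean was 22.5 ± 13.4 promoters in WT and 12 ± 9.90 in Shh-/- (SD, n = 2). The libraries of the genotypes overlapped, and their difference did not exceed that between replicates of a genotype (two-sided exact permutation test, p = 0.667, where 0.333 is the smallest p that 2 against 2 libraries allow).

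The peaks at collagen promoters ranked lower in their lists than those at promoters in general. The median rank percentile of the best peak of each called promoter was 31.2 in WT1, 50.3 in WT2, 59.2 in Null1 and 59.3 in Null2. Over all protein-coding genes with a promoter peak it was 17.8, 33.3, 40.7 and 31.1 in the same order. Both WT values were below both Shh-/- values, by 18.5 percentile points between the means (two-sided exact permutation test, p = 0.333, the smallest possible). Different genes were called in each library, so these medians do not follow the same promoters. When each list was limited to its 5589 highest scores, the size of the smallest list, the collagen promoters with a peak numbered 5, 6, 5 and 4, against 25.5%, 25.4%, 17.2% and 25.1% of all genes. At this equal list size the share of collagen promoters called was between 9.09% and 13.6%, below that of all genes in every library. The median rank percentiles within the shortened lists were 67.7, 55.2, 59.2 and 70.9, so the genotypes then overlapped. Their difference was -3.56 points (two-sided exact permutation test, p = 0.667).

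**Figure D1:**
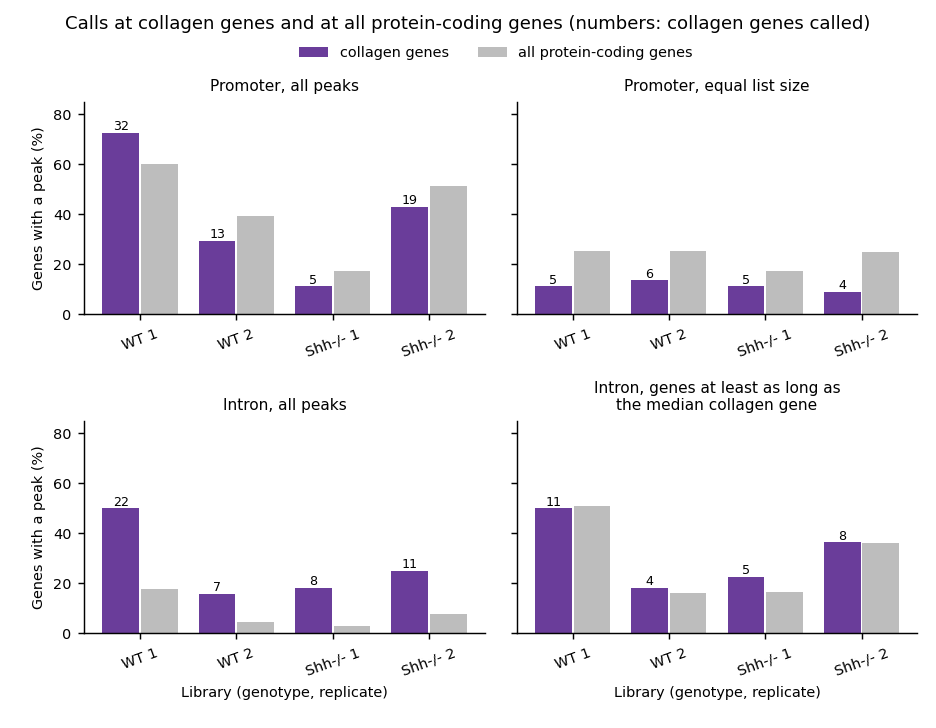
Share of the collagen genes (purple, with the number of genes called) and of all protein-coding genes (grey) that had a peak in each library, in percent, for promoters with all peaks, promoters at equal list size, introns with all peaks, and introns among genes at least as long as the median collagen gene. With all peaks, collagen promoters lay below all genes except in WT1, and at equal list size they lay below in every library. Among genes at least as long as the median collagen gene, collagen introns were called at 18.2% to 50%, against 16.3% to 50.8% of all such genes.

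Of the 44 promoters, 4 were called in all 4 libraries (16.1% of all genes were), namely Col1a1, Col1a2, Col11a1 and Col25a1. Of these, 2 held at equal list size (13.2% of all genes), Col11a1 and Col25a1. Col1a1 was lost there in WT2 only, where its score of 49 was the same as the score at the limit. Peaks tied at the limit were kept or cut by chromosome and position, so its loss does not mean a lower score. No library had a peak at 12 collagen promoters (37.9% of all genes), those of Col3a1, Col4a5, Col4a6, Col6a3, Col6a4, Col6a5, Col6a6, Col8a2, Col10a1, Col17a1, Col20a1 and Col28a1. The whole window with flanks was without a peak at 6 of them (27.1% of all genes), which were Col3a1, Col4a5, Col4a6, Col6a5, Col6a6 and Col10a1. The other 38 windows held a peak in some library (72.9% of all genes). By library, 37, 22, 14 and 30 collagen windows held one, against 71.4%, 51.5%, 27.1% and 62.3% of all genes. Among the promoters with a peak in some libraries, 10 were called in WT1 alone (8.79% of all genes) and 8 in WT1 and Null2 (11.8%), the libraries with the longest lists.

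**Figure D2:**
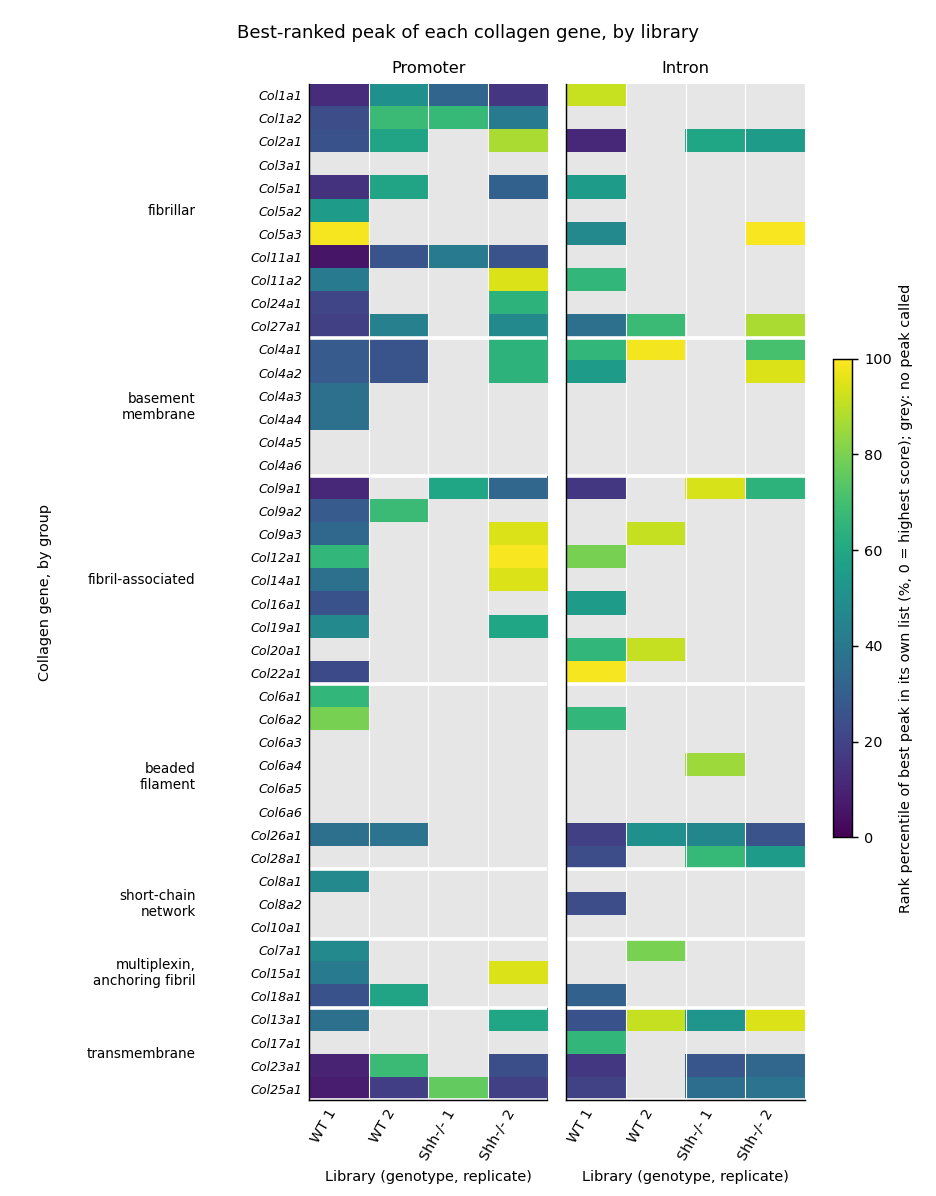
Best-ranked promoter peak (left) and intronic peak (right) of each of the 44 collagen genes, by library. Colour gives the rank percentile of the peak in its own list (0 is the highest score) and grey a peak that was not called; promoters of Col1a1, Col1a2, Col11a1 and Col25a1 were filled in all 4 libraries.

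Next, the early cartilage genes Col2a1, Col9a1 and Col11a1 were examined. Their promoter windows were called for 3, 2, 2 and 3 of the 3 genes in WT1, WT2, Null1 and Null2, against 60.4%, 39.2%, 17.2% and 51.2% of all genes. The same shares stand beside the counts of each collagen group that follows, and groups this small were not tested against them. Col11a1 (chr3:114030540-114220718, plus strand), which encodes a chain of the type XI collagen at the core of cartilage fibrils, had the best-ranked promoter of all collagen genes in WT1. Its promoter peak had a score of 507 in WT1, 93 in WT2, 89 in Null1 and 175 in Null2, at rank percentiles of 5.51, 25.8, 40.7 and 25.6. The summits lay at -82 to -151 bp from the TSS in all libraries. It was the only peak within the 190 kb gene and its flanks in every library, so Col11a1 was called at its start and in none of its introns. In the printed promoter sequence a GC box lies on the plus strand.

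Col2a1 (chr15:97975602-98004695, minus strand), which encodes the main fibrillar collagen of cartilage, had a peak over its TSS in the WT libraries only. The promoter score was 102 in WT1 and 41 in WT2, at rank percentiles of 25.1 and 58.3. Null1 had no promoter peak, and the peak in Null2 (score 31, rank percentile 87.2) had its summit 1151 bp after the TSS and did not cover it. An intronic region showed another pattern. The region in intron 18, 14.4 kb after the TSS, was called in WT1 (score 264, rank percentile 11.3), Null1 (60, 59.2) and Null2 (70, 54.8) but not in WT2. Outside promoter windows, it was the best-ranked intronic collagen peak in WT1. WT1 had 14 peaks in the Col2a1 window against 1, 1 and 2 in the others. The stretch of intron 18 printed above holds no match to the motifs searched, SOX sites included.

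Col9a1 (chr1:24177610-24252684, plus strand), which encodes a chain of the type IX collagen on the surface of cartilage fibrils, has a second annotated TSS 17.6 kb after its main one. No library had a peak at the main start. A region at the second start was called in WT1 (score 264, rank percentile 11.3), Null1 (60, 59.2) and Null2 (134, 33.1) and not in WT2. Its summits lay 1088, 1020 and 1056 bp after the second TSS, just past the end of the promoter window, which the peaks overlapped, and only the peak of WT1 covered that TSS. A region in intron 36, 62.7 kb after the main start, was called in the same 3 libraries, with scores of 178, 26 and 54 at rank percentiles of 16.1, 94.0 and 64.7. WT2 had no peak in the Col9a1 window at all. The intronic Col2a1 region and these Col9a1 regions were therefore called in both Shh-/- libraries and in 1 of the 2 WT libraries. The Col9a1 region at the second start is counted as a promoter call.

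**Figure D3:**
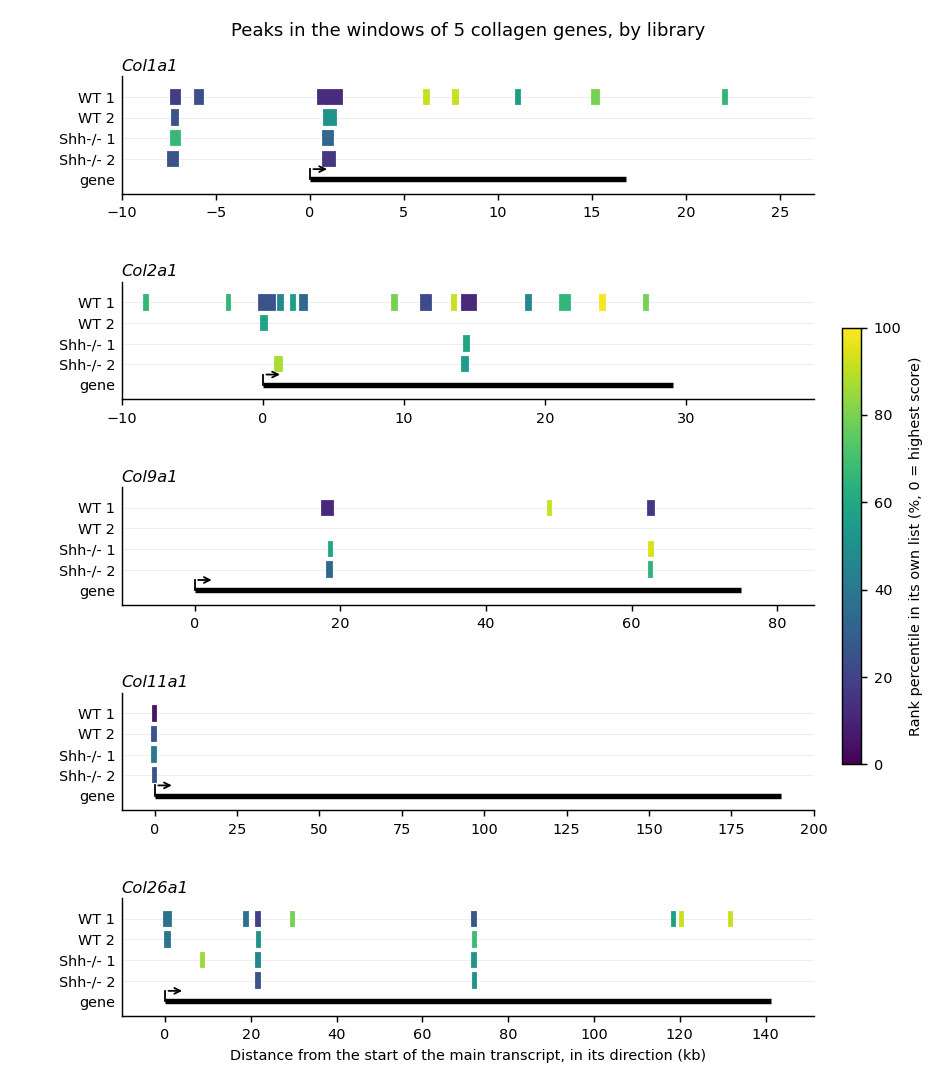
Peaks in the windows of Col1a1, Col2a1, Col9a1, Col11a1 and Col26a1 by library, against the distance from the start of the main transcript in kb, in the direction of the gene. Boxes are peaks, drawn at least 0.5% of the axis wide, coloured by rank percentile in their own list, the black bar is the gene and the arrow its start; the Col1a1 pair of regions, the Col11a1 start and both Col26a1 intronic regions line up in all 4 libraries.

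The fibrillar collagens had promoter calls in every library. Of 11 genes, 10, 6, 3 and 8 had a promoter peak in WT1, WT2, Null1 and Null2, against 60.4%, 39.2%, 17.2% and 51.2% of all genes. Col1a1 (chr11:94936224-94953042, plus strand) and Col1a2 (chr6:4504814-4541544, plus strand) encode the 2 chains of type I collagen, the collagen of bone, skin and tendon. The Col1a1 peak in the promoter window had scores of 231, 49, 109 and 264 at rank percentiles of 12.8, 50.3, 32.6 and 15.9. In all libraries it lay in intron 1, with summits 810 to 1019 bp after the TSS, and covered the TSS in none. A further region about 7.2 kb before the TSS was also called in all 4 libraries, with scores of 158, 93, 51 and 175 at rank percentiles of 17.8, 25.8, 67.1 and 25.6. It was the only region in the flanks of a collagen gene, outside promoters of other genes, that all libraries shared. The upstream sequence holds a pair of GC boxes on the minus strand, and the intron 1 sequence a match to the CTCF core on the minus strand.

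The Col1a2 promoter peak covered the TSS in all libraries, with scores of 111, 34, 51 and 105 at rank percentiles of 23.6, 68.3, 67.1 and 40.8, and was the only peak of its window in each. Just before the TSS its sequence holds a pair of GC boxes on the plus strand. Col5a1, which encodes a chain of the type V collagen that starts type I fibrils, was called over its TSS in WT1 (score 199, rank percentile 14.6), WT2 (41, 58.3) and Null2 (144, 31.1). Col27a1, a minor fibrillar collagen of cartilage, was called in the same libraries with promoter scores of 148, 57 and 87 at rank percentiles of 18.8, 43.7 and 47.0. The Null1 list, the shortest, had no peak for either gene.

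The other fibrillar promoters were called in the longer lists or in none. Col24a1 had a promoter score of 129 (rank percentile 21.1) in WT1 and 54 (64.7) in Null2. Col11a2, the partner of Col11a1 in type XI collagen, had 53 (41.4) and 24 (94.8) in the same libraries. Col5a2, the partner of Col5a1, was called in WT1 alone, with a score of 38 (55.3). Col5a3 had a score of 14 there (98.5), the lowest in that list, with its summit at -1342 bp from the TSS. Col3a1 (chr1:45311538-45349706, plus strand), which encodes type III collagen of soft connective tissue, had no peak in its gene body or within 10 kb in any library. It lies beside Col5a2 on chromosome 1.

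The type IV genes of the basement membrane lie in head-to-head pairs. Promoters were called for 4, 2, 0 and 2 of the 6 genes. Col4a1 (chr8:11198423-11312826, minus strand) and Col4a2 (chr8:11312805-11449287, plus strand), which encode the chains found in nearly all basement membranes, share their start, and the same peak covered both TSSs. Its score was 84 in WT1, 93 in WT2 and 54 in Null2, at rank percentiles of 28.8, 25.8 and 64.7, and it was not called in Null1. Both genes are counted, but they are 1 observation. The start of Col4a3 and Col4a4, chains of the kidney and lung basement membrane, held a peak in WT1 alone, with a score of 60 (rank percentile 37.0). Col4a5 (chrX:141475385-141689234, plus strand) and Col4a6 (chrX:141165403-141474076, minus strand) had no peak in their windows in any library. Intronic peaks were called in Col4a1 in WT1, WT2 and Null2 and in Col4a2 in WT1 and Null2, each at a rank percentile of 55.3 to 98.2.

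Of the 9 fibril-associated genes, 8, 1, 1 and 5 had a promoter peak in WT1, WT2, Null1 and Null2. The peak in Null1 was that of Col9a1. The 8 genes of beaded filaments, type VI collagen and its relatives, had 3, 1, 0 and 0, the 3 short-chain genes, which include the hypertrophic cartilage collagen Col10a1, 1, 0, 0 and 0, and the group of Col7a1, Col15a1 and Col18a1 3, 1, 0 and 1. Type VI collagen promoters were called in WT1 alone, at Col6a1 (score 32, rank percentile 66.3) and Col6a2 (25, 79.5). The 4 transmembrane collagens, which stay anchored in the cell surface, had 3, 2, 1 and 3. Among them Col25a1 (chr3:130131501-130599877, plus strand), a transmembrane collagen of neurons and muscle innervation, had promoter scores of 381, 122, 42 and 230 at rank percentiles of 7.74, 18.6, 76.0 and 18.9. Its peak covered the TSS in all libraries, and it held the best promoter rank of the collagen genes in WT2. Col23a1 had promoter scores of 309, 34 and 186 in WT1, WT2 and Null2, at rank percentiles of 9.69, 68.3 and 24.1.

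To compare promoters with introns, every peak in the collagen windows was given 1 place. There were 240 such peaks in WT1, 35 in WT2, 22 in Null1 and 63 in Null2, which were 0.614%, 0.292%, 0.394% and 0.341% of their lists. The mean number was 137.5 ± 145 in WT and 42.5 ± 29.0 in Shh-/- (SD, n = 2), and the ranges of the genotypes overlapped (two-sided exact permutation test, p = 0.667). In peaks per Mb the collagen windows had 38.9, 5.67, 3.56 and 10.2, and the windows of all protein-coding genes 25.6, 8.46, 3.63 and 12.3. Only WT1 therefore held more peaks per Mb at collagen genes than at genes in general. Promoter peaks of the collagen genes made up 14.2%, 37.1%, 22.7% and 31.7% of the peaks in the windows (WT minus Shh-/- of -1.58 percentage points, two-sided exact permutation test, p = 1). Intronic peaks made up 46.7%, 25.7%, 50% and 36.5%, and exonic peaks 24.6% in WT1, 8.57% in WT2, none of the 22 peaks in Null1 and 14.3% in Null2.

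**Figure D4:**
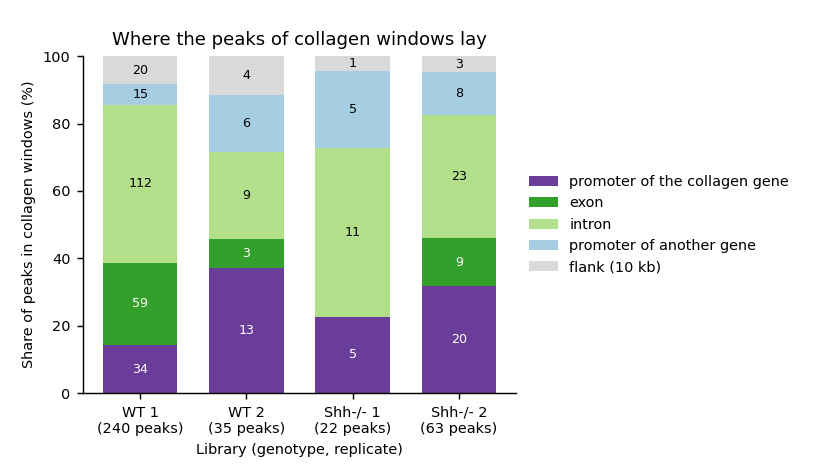
Share of the peaks in collagen windows, in percent, that lay in the promoter of the collagen gene, in an exon, in an intron, in the promoter of another gene or in the flank, by library. Numbers in the bars are peaks; introns held 112 of 240 peaks in WT1 and 11 of 22 in Null1.

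An intronic peak was called in 22 collagen genes in WT1 (17.9% of all protein-coding genes had one), 7 in WT2 (4.56%), 8 in Null1 (3.09%) and 11 in Null2 (7.84%). The counts of 14.5 ± 10.6 in WT and 9.5 ± 2.12 in Shh-/- (SD, n = 2) overlapped (two-sided exact permutation test, p = 1). These shares were above those of all genes in every library, but collagen genes are long, with a median of 114 kb against 17.4 kb for all protein-coding genes. Among genes at least as long as the median collagen gene, the intronic counts were 11, 4, 5 and 8 of 22 collagen genes, and 50.8%, 16.3%, 16.4% and 36% of 2078 genes in all. The collagen shares were then 50%, 18.2%, 22.7% and 36.4%, close to those of all genes at least this long in WT1 and Null2. The higher shares in WT2 and Null1 rest on 4 and 5 genes and were not tested. Length had no upper limit here, and the longest gene was 4435 kb over all genes and 468 kb among collagen genes. The median rank percentile of the best intronic peak was 51.3, 91.1, 55.6 and 64.7 at collagen genes and 55.3, 68.3, 67.1 and 71.1 at all genes. These ranks were not matched for gene length, and a longer gene can hold more peaks from which its best is taken. Within collagen genes introns thus ranked below promoters in WT1, WT2 and Null2, and slightly above them in Null1. The Null1 medians, 55.6 and 59.2, rest on 8 intronic and 5 promoter values, and the order was not tested.

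Intronic peaks in all 4 libraries were called in 2 collagen genes (1.14% of all genes), Col13a1 and Col26a1. In Col13a1 they were in different places, except for a region that WT1 and Null1 shared and another that WT1 and Null2 shared. In Col26a1 (chr5:136741759-136883209, minus strand), a gene of the beaded filament group, the same pair of regions was called in each library. The region in intron 1, 21.8 kb after the TSS, had scores of 148, 49, 79 and 175 at rank percentiles of 18.8, 50.3, 45.9 and 25.6. The region in intron 3, 72.0 kb after the TSS, had scores of 93, 34, 69 and 78 at rank percentiles of 26.9, 68.3, 52.0 and 50.7. Outside promoter windows, these were the only collagen introns with a region shared by all libraries. The printed stretch of Col26a1 intron 1 holds a SOX site (ACAAAG) on the plus strand. A group of 5 genes, Col2a1, Col9a1, Col23a1, Col25a1 and Col28a1, had an intronic peak in WT1 and both Shh-/- libraries but not in WT2 (1.11% of all genes). In Col28a1 the intronic peak of Null1 overlapped no peak of WT1. In Col23a1 a region in intron 5, 254 kb after the TSS, had scores of 178, 131 and 134 in these libraries, at rank percentiles of 16.1, 26.7 and 33.1, the best intronic rank of a collagen gene in Null1. No intronic peak was called in 19 collagen genes in any library (79.6% of all genes). The shares of all genes given for these intronic patterns are not matched for gene length, and collagen genes are long.

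To ask which accessible regions followed genotype, overlapping peaks of the 4 lists were merged into regions. Of the 269 regions in collagen windows, 215 were called in 1 library, 29 in 2, 15 in 3 and 10 in all 4 (7.97% of all merged regions). WT1 alone gave 187 of the 269 (51.6% of all merged regions). WT2 alone gave 12 (4.28%), Null1 alone 2 (1.01%) and Null2 alone 14 (7.33%). There were 4 regions with calls in WT1 and WT2 and none in Null1 or Null2 (2.09% of all merged regions), or 1.49% of the collagen regions, and 1 region with the reverse pattern (0.396%), or 0.372%. Both shares were near those over all merged regions, rest on 4 regions and 1 region, and were not tested against them. At equal list size there were 27 collagen regions, of which 1 had the first pattern (3.70%, against 3.7% of all regions) and 2 the reverse (7.41%, against 3.28%). For whole promoters, 3 collagen genes were called in both WT libraries only (1.53% of all genes) and 0 in both Shh-/- libraries only (0.00456%).

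The regions called in WT lay in the promoter windows of Col9a2, Col18a1 and Col26a1 and in intron 32 of Col20a1, where it reached the next exon. At Col9a2, which encodes a further chain of type IX collagen, the scores were 84 in WT1 and 34 in WT2 (rank percentiles 28.8 and 68.3), with summits 513 and 420 bp after the TSS. At Col18a1, whose product releases endostatin, the region had scores of 102 and 41 (25.1 and 58.3) and lay at a start that is at -52602 bp from the main one. At the promoter of Col26a1 the scores were 60 and 66 (37.0 and 38.1), and at Col20a1 32 and 20 (66.3 and 91.1). The region called in Shh-/- lay in intron 23 of Col28a1, a relative of type VI collagen, at chr6:8077672-8077942, with a score of 51 in Null1 and 54 in Null2 (67.1 and 64.7). All 5 had a rank percentile of 38.1 or more in at least 1 library. None of the promoter regions was called in both WT libraries at equal list size, where 0 collagen promoters had this pattern (1.47% of all genes) and 0 the reverse (0.36%). No gene of the early cartilage, type I or type IV groups had a region of either kind. For Col2a1 this rests on the rule that merged peaks overlapping by at least 1 bp. Its WT1 peak over the TSS began at base 98003855, where the Null2 peak, which did not cover the TSS, ended. Without that contact, the Col2a1 region over the TSS would have held peaks of WT1 and WT2 only.

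Collagen promoters had about the GC content of promoters in general but fewer CpG dinucleotides. Within 500 bases of the TSS the median GC content was 56.3% in collagen genes and 55.2% in 21938 protein-coding genes, and the median ratio of observed to expected CpG was 0.435 and 0.568. Promoters called in no library had a median GC content of 48.1% (n = 12), and those called in 1, 2, 3 and 4 libraries had medians of 56.4% (n = 10), 58.0% (n = 11), 66.9% (n = 7) and 57.6% (n = 4). The 7 include Col4a1 and Col4a2, which share their start and are 1 observation. Col4a1 had the highest value, 70.9%. Exceptions lay on both sides, since Col9a1 was called in 3 libraries at 46.9% around its main start, where there was no peak, and 1 promoter called in no library had 64.5%. Null1 differed from the other libraries in that its 5 called collagen promoters had a lower median GC content, 55.9%, than the 39 not called, 56.6%. The 5 were Col9a1, measured at the main start without a peak, and the 4 called in all libraries, with a median of 57.6%. Over all protein-coding genes, promoters called in Null1 had a higher median, 59.9%, than those not called, 53.7%. The peaks themselves had a lower median GC content in collagen windows than over the whole list in each library, at 54%, 57.5%, 51.2% and 56% against 56%, 63%, 56.5% and 61.5%. The median was lowest for promoters called in no library and was lower for those called in 4 libraries than for those called in 3, and the part of GC content in the calls was not tested.

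**Figure D5:**
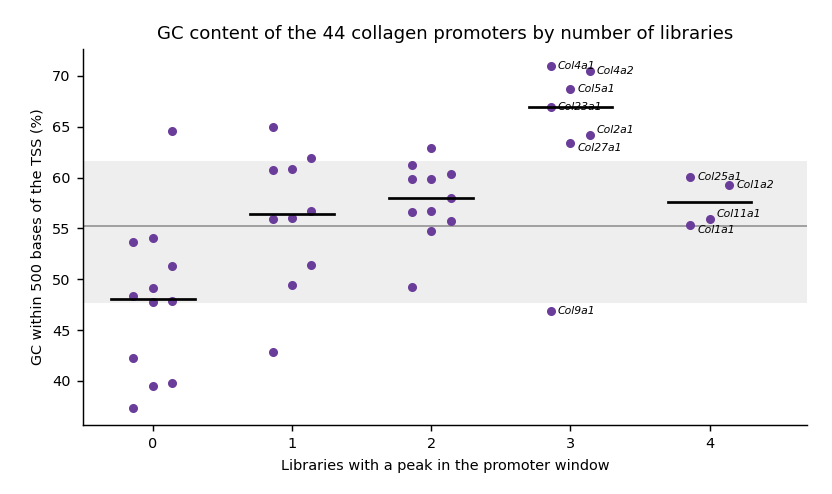
GC content within 500 bases of the main TSS, in percent, of the 44 collagen promoters, by the number of libraries (of 4) with a peak in the promoter window. Points are genes, black lines are medians, the grey line is the median of all protein-coding genes (55.2%) and the band is their interquartile range; promoters called in no library had a median of 48.1%.

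Motifs were counted in 200 bases around the best summit of each region called in at least 2 libraries. A GC box was present in 12 of 28 promoter regions in collagen windows (42.9%) and in 57.4% of 11361 promoter regions in all. Away from promoters it was present in 1 of 26 collagen regions (3.85%) and in 16.8% of 4628 regions. The SOX site ACAAAG was found in 3 of the 26 distal collagen regions (11.5%) and in 13.9% of all distal regions, and AACAAT in 3 (11.5%) and in 7.32%. The CTCF core was found in 5 of 28 promoter regions (17.9%, against 9.74%) and in 2 of 26 distal regions (7.69%, against 8.08%). The GLI consensus, which the transcription factors of the Hedgehog pathway bind, was found in 0 of the 54 collagen regions, and in 0.176% of promoter and 0.367% of distal regions over all genes. Regions of collagen windows include promoters of neighbouring genes, and these counts are a few regions each.

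The genes that make and finish collagen were set beside the collagen genes. Of 28 such genes, 26, 16, 10 and 22 had a promoter peak in WT1, WT2, Null1 and Null2, against 60.4%, 39.2%, 17.2% and 51.2% of all genes. A promoter peak in all libraries was called for 9 of the 28, against 16.1% of all genes. P4ha1, the catalytic subunit of the prolyl hydroxylase that stabilizes the triple helix, had promoter scores of 839, 197, 69 and 437, at rank percentiles of 2.80, 9.22, 52.0 and 7.65. Serpinh1, the collagen chaperone HSP47, had 252, 49 and 96 (11.8, 50.3 and 43.8) and no call in Null1, and the lysyl hydroxylase Plod1 had 220, 66 and 144 (13.4, 38.1 and 31.1) in the same libraries. Lox, which crosslinks collagen fibrils outside the cell, was called in WT1 alone, with a score of 20 (91.8). The promoters of cartilage regulators and matrix genes were called for 8, 2, 1 and 5 of 10 genes. Sox9, the main regulator of cartilage formation, had promoter scores of 120 in WT1 and 105 in Null2 (22.3 and 40.8) and no promoter peak in WT2 or Null1.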

How the data were processed

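ATAC-seq libraries were made from posterior forelimb tissue of 4 embryos, 2 of each genotype. Bowtie2 (2.2.5), MACS2 (2.1.0) and the builds mm10 and GRCm38 are in the submitters' processing notes. Peaks were called in each library alone with a q-value cutoff and a 200 bp window. Read filters and any Tn5 shift are not given in the sources used here. The authors deposited 1 peak list per library, with a score for each peak. By the caller's format the score is 10 times the highest −log10 q-value, a scale the files do not state, so it was used only to rank peaks within a list. The columns for fold, p and q were 0 throughout. There are no read counts, so depth and its precision are unknown and the study's limma test on peak signal could not be made.

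Members were called with Python (3.11.15), numpy (2.4.6) and scipy (1.17.1) against GENCODE M21, basic set for TSSs. A peak was placed in the member's promoter window, another gene's promoter, an exon, an intron or the flank, in that order. Tied scores shared their mean rank. Peaks overlapping by at least 1 bp were merged. Sequences were read with samtools (1.23.1) from GRCm38.p6, and 0 peaks ended beyond a chromosome. For 35 collagen symbols, 38 promoters in RefSeq's table matched that sequence. Calling was tested on simulated lists. Library groups came from titles, and p-values describe these 4 embryos. Replicate numbers only name embryos: same-numbered libraries correlated at 0.245 for calls and -0.126 for ranks over 44692 regions. Members and gene lists were chosen with earlier results of these data known. Values in every library are given for early cartilage, fibrillar and type IV genes, promoters called in all libraries and windows with a region specific to a genotype, and for Serpinh1, P4ha1, Plod1, Lox and Sox9. Other genes with values were named after these were seen. Alternatives were equal list size, a score of at least 50, other windows, summit overlap, the main TSS only (chosen after seeing the data), a replicate block and leaving out each library.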

Additional observations from a re-analysis of the deposited data

How the results depend on the processing

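No value that compares genotypes passed a threshold in any setting, and 2 against 2 libraries cannot reach 0.05. Of 95 values over all settings, 70 kept their direction or, for counts, stayed within 1.5 times. At equal list size the sign of WT minus Shh-/- turned for intronic genes (-4), peaks in collagen windows (-6), their share of the list (-0.107 percentage points) and the promoter share of these peaks (18.2 percentage points). With scores of at least 50 it turned for intronic genes (-1), the share of the list (-0.0361) and the promoter share (8.18), and with a promoter window of 500 bases either side for the promoter share (3.02). The difference in median promoter rank kept its sign but was -3.56 points at equal list size, where the genotypes overlapped, and -8.93 with scores of at least 50. Leaving out 1 library gave differences of 1 to 20 promoters, -2.5 to 12.5 intronic genes, -7.5 to 197.5 peaks, -0.0751 to 0.247 points of list share, -13.1 to 9.91 points of promoter share and -28.0 to -9.01 points of median promoter rank. The lowest of the intronic genes, peaks and list share came without WT replicate 1 and the highest without WT replicate 2; the promoter share also turned without Shh-/- replicate 2 (2.93). Promoters called in all libraries were 2 at equal list size, 1 (Col11a1) with scores of at least 50, and 4 to 10 without 1 library, the highest without Shh-/- replicate 1. By summit position 3 remained, without Col1a1. WT-specific regions were 1 at equal list size, 1 with scores of at least 50, and 4 to 191 without 1 library, the highest without WT replicate 2. Shh-specific regions were 2 at equal list size and 1 to 15 without 1 library, the highest without Shh-/- replicate 1. With fewer libraries to satisfy, such counts can only grow. A replicate block left the difference in median promoter rank at -18.5 (exact sign-flip permutation test, p = 0.5, the smallest possible), left all other differences as they were and changed no call. Crossed numbers, tried after seeing the data, gave the same differences, which the numbering cannot change. For promoters called and for peaks in collagen windows they lowered the p-value to that smallest value (exact sign-flip permutation test, p = 0.5). The causes of the reversals were not tested. Depth is unknown, so the lists limit what was called.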

Other observations

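The promoters of other genes inside the collagen windows held 15, 6, 5 and 8 peaks in WT replicate 1, WT replicate 2, Shh-/- replicate 1 and Shh-/- replicate 2. Of these, 3 regions were called in all libraries: the starts of Pfkfb4 beside Col7a1 (scores 987, 186, 200 and 450), of Rxrb and Slc39a7 beside Col11a2 (333, 122, 69 and 324) and of Phykpl beside Col23a1 (587, 75, 89 and 253). Each ranked above the promoter of the neighbouring collagen gene in every library that called both, since Col7a1 was called in WT replicate 1 (score 45) alone, Col11a2 in WT replicate 1 and Shh-/- replicate 2 (53 and 24) and Col23a1 in 3 libraries (309, 34 and 186). These genes were chosen after their values were seen.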
